A study of Drosophila melanogaster with 9 samples.

Results

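Of the 8440 peaks that an antibody against endogenous KDM5 gave on the chromosome arms 2L, 2R, 3L, 3R and X of wildtype flies, 3591 shared not a single base with any peak of the anti-HA libraries or of the H3K4me3 library. They are called unpartnered KDM5 peaks here. The whole wildtype KDM5 list, scaffolds and chromosome 4 included, held 8948 peaks. They were chosen by the overlap, at 1 bp or more, of deposited peak intervals, so the absence of a partner describes the choice of these peaks and is not a result. Chromatin immunoprecipitation and sequencing had been done on whole adult Drosophila melanogaster females of 1 to 3 days. The wildtype flies were w1118, with no feeding regime recorded, and gave 1 KDM5 library and 1 H3K4me3 library. The anti-HA libraries came from flies of genotype k6801/k6801;gHA-KDM5, which carry KDM5 with an HA tag on a genomic rescue transgene. The flies of 2 anti-HA libraries had 6 hours on 5% sucrose (control), and those of the other 2 had 20 mM paraquat, a herbicide that causes oxidative stress, in the same sucrose. Genotype, antibody and feeding all differ between the wildtype KDM5 library and the anti-HA libraries and cannot be told apart. A whole animal mixes all its tissues, so fewer cells with KDM5 at a site and less KDM5 per cell cannot be told apart either.

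KDM5 is the fly member of a family of histone demethylases that remove methyl groups from lysine 4 of histone H3. The trimethylated form, H3K4me3, marks the starts of actively transcribed genes. The protein also carries domains that read methylated histones, and it is known in flies as little imaginal discs (Lid), with roles in both activation and repression of genes. Peaks of such a chromatin protein away from H3K4me3 are of interest because its best known substrate lies at promoters. Gene names and the sequence beneath the peaks were not used here, so positions alone identify them, in the dm3 build and counted from 1.

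Unpartnered peaks made up 42.5% of the wildtype KDM5 peaks on the arms (95% Wilson interval 41.5 to 43.6, for counting error only). Without the H3K4me3 criterion 3672 peaks, or 43.5%, had no anti-HA peak, and 5260, or 62.3%, had no H3K4me3 peak. The remaining peaks fell into 3 classes, with 3099 holding both an anti-HA and an H3K4me3 peak, 1669 an anti-HA peak alone and 81 an H3K4me3 peak alone. A KDM5 peak with H3K4me3 and no anti-HA peak was thus rare beside one with neither. The unpartnered peaks covered 2.18 Mb, which was 27.2% of the 8.02 Mb under all wildtype KDM5 peaks on the arms. Each list is 1 library and peaks of 1 library are not replicates, so no test was made over peaks and the values below are descriptions.

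Most unpartnered peaks were weak and narrow. Their fold enrichment over local background, as the authors' peak caller gave it, had a median of 2.63 and quartiles of 2.10 and 3.55. The median was 3.496 for peaks with H3K4me3 alone, 6.47 for those with anti-HA alone and 8.94 for those with both. Median widths ran in the same order. They were 506 bp for unpartnered peaks, 788 bp with H3K4me3 alone, 881 bp with anti-HA alone and 1110 bp with both. A wide peak also has more bases that a partner can touch. Of the 81 peaks with H3K4me3 alone, 44 lay in a stretch of 2L described below, with a median fold of 3.29. Values for this class therefore rest largely on that stretch. The pileup, the scaled number of ChIP fragments at the summit, had a median of 87.4 in unpartnered peaks and 309 in peaks with both partners. The classes therefore differed in strength as well as in partners, with the 10th to 90th percentiles of unpartnered folds (1.85 to 4.79) lying below the 10th percentile of 6.84 in the class with both.

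Few unpartnered peaks were marginal calls. Their median −log10 q was 13.3, and 3566 of them had a q-value of at most 0.01, while the deposited list runs down to a q-value of 0.0490. The local background recovered from pileup and fold was at the lowest value in the list, 31.0 fragments, within 0.1%, in 54.7% of unpartnered peaks. This share was 36.7% for peaks with anti-HA alone, 39.2% for those with both and 14.8% for the 81 with H3K4me3 alone. Backgrounds over 40 fragments were found at 6.49% of unpartnered peaks and at a similar 7.55% of peaks with both partners. The shares were 14.4% with anti-HA alone and 43.2% with H3K4me3 alone. Of the 81 peaks in the latter class, 44 lay in the 2L stretch, where the median background at KDM5 peaks was 42.1 fragments. The shares for that class are thus not shown to hold outside the stretch.

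When all wildtype KDM5 peaks on the arms were ranked by fold and split into deciles of 844 peaks, the unpartnered share fell from decile to decile until the last 2, which were equal. In the weakest decile, with folds of 1.38 to 2.04, 807 peaks or 95.6% (94.0 to 96.8) were unpartnered. In the fourth, with folds of 3.16 to 4.19, it was 77.4% (74.4 to 80.1). The fifth decile, at folds of 4.19 to 5.78, held the steepest drop, to 43.6% (40.3 to 47.0). The sixth held 15.4% (13.1 to 18.0) and the seventh 4.502% (3.30 to 6.12). The lowest 4 deciles together contained 3036, or 84.5%, of all unpartnered peaks. The upper 3 contained 19, which was 0.750% of the 2532 peaks there.

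**Figure D1:**
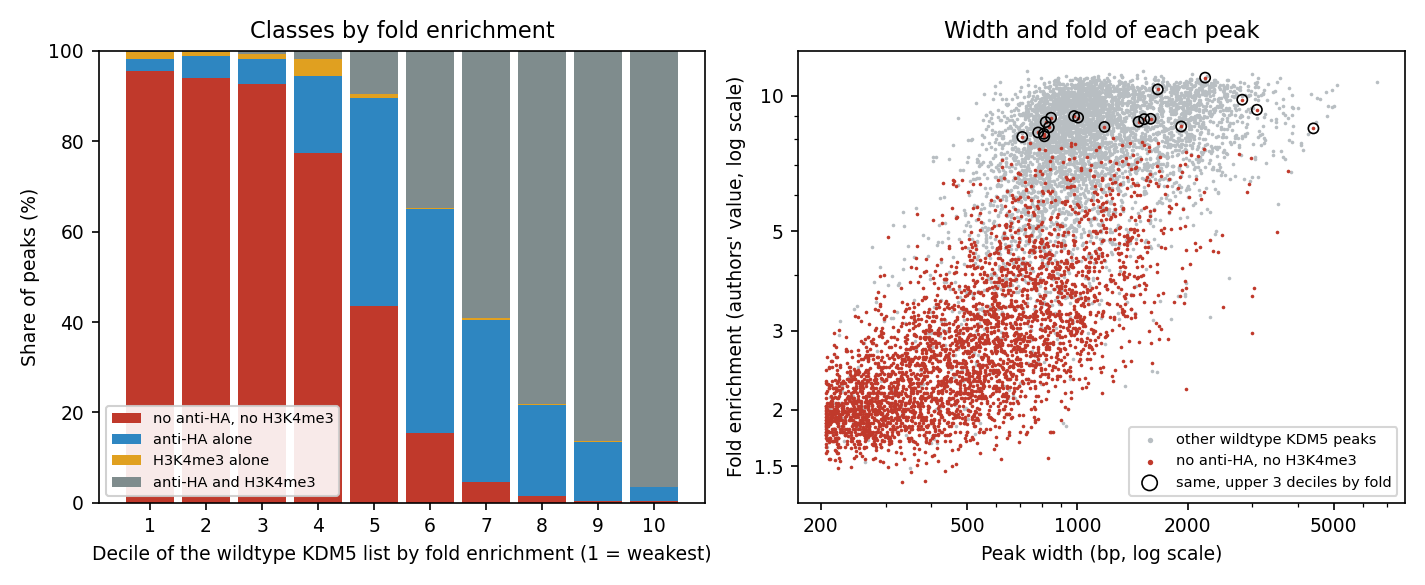
Left, the share of wildtype KDM5 peaks in each class (y axis, percent) by decile of the list ranked by fold enrichment (x axis, 844 peaks each). Right, width (bp) against fold, both on log scales, for each of the 8440 peaks, with unpartnered peaks in red and the 19 in the upper 3 deciles circled. Red fills the lower left, and the circled peaks stand among the grey partnered ones.

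Among unpartnered peaks width and fold rose together (Spearman's rho 0.71 across 3591 peaks of 1 library, which share its depth). Peaks of at most 300 bp had a median fold of 1.996, those of 801 to 1200 bp 3.66 and those over 2000 bp 5.95. By width, the unpartnered made up 774 of the 814 narrowest peaks but 553 of the 2629 with 801 to 1200 bp, and 29 of the 548 over 2000 bp. Within deciles of fold, however, the unpartnered peaks had the larger median width in 8 of 10 when set against peaks with anti-HA alone, and the smaller in the first and the eighth. The number of unpartnered peaks behind these medians fell from 807 in the first decile to 3 in each of deciles 9 and 10. Peaks with anti-HA alone were few in the weakest deciles, at 22, 40 and 47 in deciles 1 to 3. The medians were 289 bp and 376.5 bp in the weakest decile, 712 bp and 634 bp in the fourth, and 1099.5 bp and 957 bp in the sixth. Within most deciles, therefore, the unpartnered peaks did not have the smaller median width, though several of these medians rest on few peaks.

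The widest peaks differed in shape as well. The distance from the summit to the nearer edge, as a share of peak width, had a median of 40.8% in unpartnered peaks of at most 300 bp and 20.6% in the 29 over 2000 bp. In the 456 peaks over 2000 bp with both partners it was 35.4%. A summit in the middle would give 50%. At 801 to 1200 bp the medians were 28.6% in unpartnered peaks and 28.3% in those with both partners, and at 1201 to 1600 bp 25.2% and 24.4%. At 1601 to 2000 bp they were 20.9% and 32.0%. The classes thus differed mainly above 1600 bp, where the summit of unpartnered peaks was typically nearer to one end.

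Considering only peaks without H3K4me3, wildtype fold rose with the number of anti-HA libraries that had a peak at the site. The median fold was 2.63 with none, 4.99 for the 521 peaks found in 1 library, 6.48 for the 331 in 2, 6.79 for the 305 in 3 and 7.32 for the 512 in all 4. The largest step lay between none and 1. Of the 521 peaks excluded by a single library, 447 owed this to paraquat library 1, and 28, 20 and 26 to control library 1, control library 2 and paraquat library 2. The paraquat library 1 peaks at those 447 sites were weak, with a median fold of 2.40 and a median width of 162 bp, against a median fold of 3.26 over that library's arm and chromosome 4 peaks. Paraquat library 1 also had the longest list of the anti-HA libraries, at 7403 peaks against 4853 to 5886. Of the single anti-HA libraries, paraquat library 1 thus moved the boundary of the unpartnered set most. Without that library 4038 peaks would have been unpartnered, rather than 3591.

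**Figure D2:**
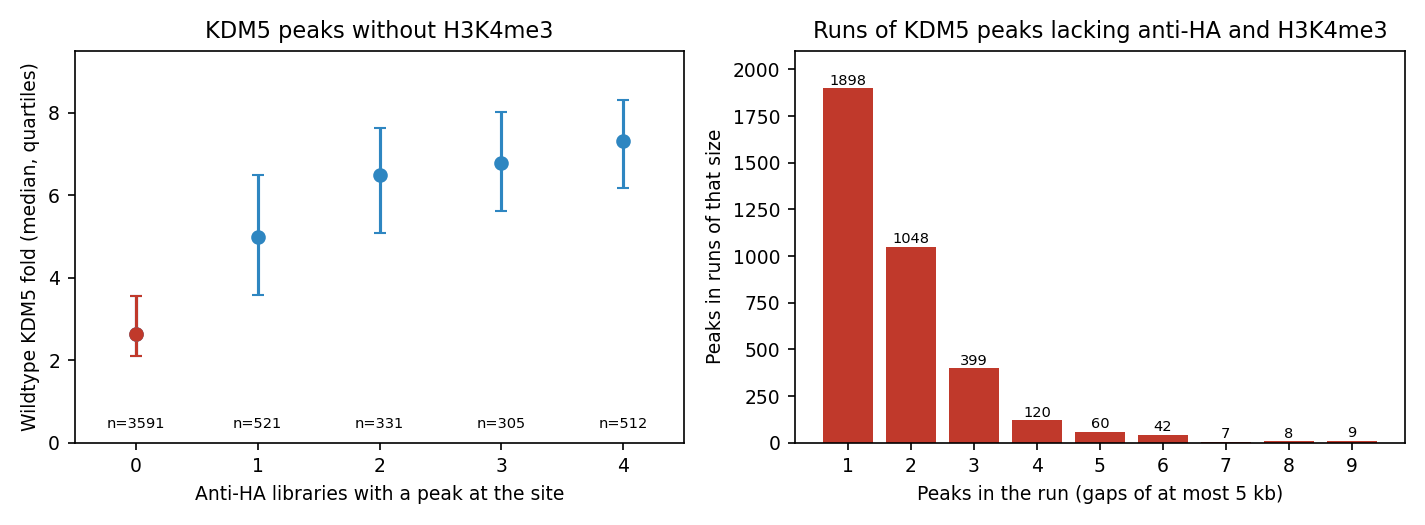
Left, median wildtype KDM5 fold with quartiles as bars (y axis) for peaks without H3K4me3, by the number of anti-HA libraries with a peak at the site (x axis). Right, the number of unpartnered peaks in runs of each size, where neighbours at most 5 kb apart are joined. The median rises from 2.63 to 7.32, and 1898 unpartnered peaks stand alone.

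Unpartnered peaks typically lay kilobases away from regions shared by the anti-HA libraries. The median gap to the nearest core KDM5 region, a region with a peak in all 4 anti-HA libraries (3337 on the arms), was 11162 bp edge to edge, with quartiles of 3095.5 and 36030.5 bp. To the nearest of the 4612 H3K4me3 peaks on the arms it was 10041 bp, with quartiles of 2889 and 28289 bp, and it was 16356 bp when the upper 50% of the H3K4me3 list was used. For peaks with anti-HA alone the median gap to H3K4me3 was 3302 bp. A core region was nearer than an H3K4me3 peak for 2419 unpartnered peaks, or 67.4%. This order alone says little of closeness, since the median gap to H3K4me3 was the shorter. The margin could be small, as for a peak on 3L at 44.06 kb from a core region and 44.198 kb from H3K4me3. Within 5 kb on both sides, 268 unpartnered peaks had a core region and 286 an H3K4me3 peak.

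Although not touching them, unpartnered summits were denser near core regions than the sequence open to them. Of the 115 Mb of arm sequence outside all anti-HA and H3K4me3 peaks, 4.31% lies within 1 kb of a core region, and 347 unpartnered summits, or 9.66% (8.74 to 10.7), were there. Within 5 kb the shares were 16.3% of sequence and 32.5% (31.0 to 34.0) of summits, and within 50 kb 65.7% and 81.5% (80.1 to 82.7). At 500 bp the shares were nearer to each other, at 2.26% and 2.76% (2.27 to 3.34). For H3K4me3, 18.5% of sequence and 33.8% (32.3 to 35.4) of unpartnered summits lay within 5 kb. By comparison 57.0% of the summits of peaks with anti-HA alone lay within 5 kb of H3K4me3. At 500 bp from H3K4me3 the order was reversed, with 2.10% of sequence and 1.56% (1.20 to 2.02) of unpartnered summits. The rule bars an unpartnered peak from touching an anti-HA or H3K4me3 peak, which keeps its summit off the closest bases. Peaks need mappable sequence, which was not taken into account in these shares.

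**Figure D3:**
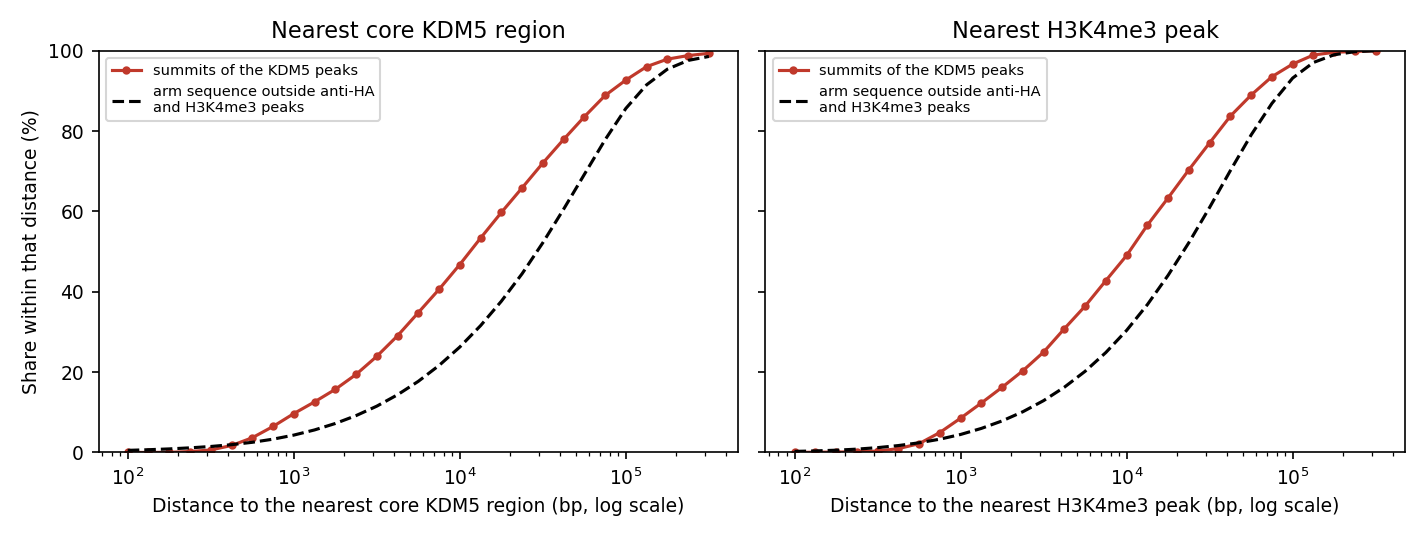
Share (y axis, percent) of unpartnered KDM5 summits (red) and of arm sequence outside all anti-HA and H3K4me3 peaks (dashed) that lies within a given distance (x axis, bp, log scale) of a core KDM5 region (left) or an H3K4me3 peak (right). From 1 kb outward the red curves run above the dashed ones, as at 5 kb with 32.5% against 16.3% for core regions.

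The closest unpartnered peaks had the lowest median fold. The rule bears on this, because close to a core region a wide peak is more likely to touch an excluding peak and drop out. Width and fold rose together (rho 0.71), and the part of the rule in this order was not tested. The 422 within 1 kb of a core region had a median fold of 2.18 and a median width of 412.5 bp. At 1 to 5 kb the median fold was 2.52 in 786 peaks, at 5 to 20 kb 2.76 in 1043 and at 20 to 100 kb 2.71 in 1079. The 261 farther than 100 kb also had 2.71. Beyond 5 kb the strength of these peaks hardly varied with distance, and over all of them the rank correlation between fold and distance was 0.14 (Spearman's rho, a description across peaks of 1 library).

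Some unpartnered peaks stood right beside a partnered one. For 502 of them, or 14.0%, the nearest wildtype KDM5 peak lay within 500 bp and had an anti-HA or H3K4me3 partner. These had a median fold of 2.18 and a median width of 396 bp, while the neighbours had 8.08 and 1033 bp. In 489 of the 502 pairs the unpartnered peak had the lower fold, with a median ratio of 0.293 to its neighbour. The classes differed in fold wherever they lay, with medians of 2.63 for all unpartnered peaks and 8.94 for peaks with both partners. The order within pairs is therefore not shown to be particular to neighbours. The remaining 3089 unpartnered peaks had a median fold of 2.70. At the other extreme 680, or 18.9%, had no other KDM5 peak within 10 kb, against 6.65% of peaks with anti-HA alone and 3.42% of those with both. These isolated peaks were no weaker than the rest, with a median fold of 2.77.

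The arms contributed similar shares. Unpartnered peaks made up 43.6% (41.2 to 46.0) of the KDM5 peaks on 3L, 43.0% (40.7 to 45.3) on 2R, 42.8% (40.4 to 45.2) on 2L, 41.8% (39.3 to 44.4) on X and 41.7% (39.6 to 43.9) on 3R. These intervals overlap, so an order of the arms was not detectable. Density was 35.3 unpartnered peaks per Mb on 2R and 27.2 to 30.01 on the others, with X lowest, and the density of all KDM5 peaks was likewise highest on 2R (82.1 per Mb) and lowest on X (65.1 per Mb). On X the 610 unpartnered peaks had a median fold of 2.63 and the smallest median gap to a core region, 9336 bp, against 10157 to 15080 bp on the autosomal arms.

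Toward the centromere the surroundings of these peaks changed more than their share. With each arm split into 10 equal segments, 282 of 626 KDM5 peaks in the segment nearest the centromere, or 45.0% (41.2 to 49.0), were unpartnered, and in the other segments 40.5% to 45.3% were. Their median gap to a core region there was 31741 bp, against 8108 to 16254.5 bp in the other segments, and that to H3K4me3 was 11870 bp, inside the range of 7273 to 13329 bp elsewhere. By arm the share in this segment was 59.3% on 3L (35 of 59 peaks) and 55.4% on 2R (46 of 83), and 41.3% to 41.8% on 2L, X and 3R. On 2L the segment includes a stretch of 96 KDM5 peaks with recurring distances, described below. Without it, a setting chosen after the values were seen, the segment's share was 47.2% (250 of 530) over all arms and 48.2% (53 of 110) on 2L, and the median gaps were 22846 bp to a core region and 16411 bp to H3K4me3, the latter then above the range of the other segments.

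Unpartnered peaks tended to follow one another along the arms. In the sorted list the peak after an unpartnered one was itself unpartnered in 53.3% of cases, against 34.5% after a partnered peak. Partnered peaks were packed more closely. The median gap to the nearest KDM5 peak was 1753 bp for unpartnered peaks, 614 bp with anti-HA alone and 515 bp with both. Series of partnered peaks are not given here, so the counts that follow are not shown to be particular to unpartnered peaks. There were 1676 unbroken unpartnered series, and the 441 series of 3 or more contained 1948 peaks, or 54.2%. The longest counted 14 peaks, on 2L from 8690627 to 8941733, a span of 251 kb with a median fold of 2.71, 1 H3K4me3 peak between its members and no anti-HA region. A series of 13 on X, from 9682386 to 9964815 (282 kb), contained neither an H3K4me3 peak nor an anti-HA region, and its nearest core region was 9.15 kb away. Another 13 lay on 2R from 12481444 to 12660209 (179 kb), also free of both inside, but with a core region 0.425 kb and an H3K4me3 peak 0.432 kb from a member. The remaining series of 13, on 2R from 2102210 to 2517393 (415 kb), contained 4 H3K4me3 peaks and 2 anti-HA regions between its members.

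By distance the runs were short. With neighbours joined across gaps of at most 5 kb, 1898 unpartnered peaks, or 52.9%, stood alone, 1048 were in pairs and 645, or 18.0%, formed 185 runs of 3 or more. Peaks in these runs had a median fold of 2.49 and lay a median of 8301 bp from a core region, and single peaks had 2.71 and 12535 bp. A joining gap of 10 kb raised the number in runs to 1276, and 2 kb lowered it to 272. Runs of 6 or more numbered 10, with 66 peaks, of which 6 runs were on 2L and none on X. On 3R a run of 7 spanned 17.2 kb from 5908711 to 5925870, with folds of 1.79 to 7.28. It lay 33.3 kb from the nearest core region and H3K4me3 peak, but contained 1 other KDM5 peak and 1 anti-HA region, and the nearest anti-HA region was 1.19 kb from a member. On 3L a run of 6 from 9040543 to 9059040 contained no other KDM5, anti-HA or H3K4me3 peak, with folds of 1.76 to 4.66. A run of 6 on 2L from 21617682 to 21633011, with folds of 1.73 to 3.55, contained 1 anti-HA region and came within 326 bp of an anti-HA peak. The most compact run of 6 spanned 3.09 kb on 2L, from 9944323 to 9947407.

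The largest runs, of 9 and 8 peaks, belonged to 1 unusual stretch of 2L. They spanned 21452291 to 21468561 and 21492739 to 21514894. Chaining all wildtype KDM5 peaks with gaps of at most 11 kb, a limit chosen after the values were seen, gave a stretch of 127 kb from 21417133 to 21543661 with 96 KDM5 peaks. Of these 32 were unpartnered, 44 had H3K4me3 alone, 11 anti-HA alone and 9 both. The 44 were 54.3% of all peaks of that class on the arms. The H3K4me3 list held 72 peaks there, whereas no core region fell inside it. Control libraries 1 and 2 had 5 and 0 peaks in it, and paraquat libraries 1 and 2 had 16 and 2. Here, then, H3K4me3 was plentiful and unpartnered peaks lay between its peaks, at a median gap of 613 bp, while the nearest core region was 106 to 172 kb away.

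Distances between KDM5 summits in this stretch recurred near multiples of 5 kb, although short distances were common as well (30 pairs at 600 to 800 bp). Counting pairs of KDM5 summits by their distance in bins of 0.2 kb, the fullest bin between 4 and 6 kb was 5 to 5.2 kb, with 35 pairs against a median of 14 per bin. Between 9 and 11 kb it was 10 to 10.2 kb with 44 pairs, and between 14 and 16 kb it was 15 to 15.2 kb with 29. The medians per bin in the latter 2 windows were 14.5 and 13.5. The windows, centred on multiples of 5 kb, continued with fullest bins of 20.2 to 20.4 kb (27 pairs, median 11.5) and 25.2 to 25.4 kb (28 pairs, median 11). H3K4me3 summits were also most often 5 to 5.2 kb (20 pairs, median 11.5) and 10 to 10.2 kb (17, median 8) apart within the first 2 windows. The next 2 fullest bins were 15 to 15.2 kb (11 pairs, median 7) and 20.2 to 20.4 kb (13 pairs, median 5.5), and the last was 24.6 to 24.8 kb (13 pairs, median 6.5). Bins of 13 pairs also stood at 10800 to 11000 bp and 18800 to 19000 bp, so the spacing of H3K4me3 summits was less clear than that of KDM5 summits. Local background was raised throughout, with a median of 41.9 fragments (36.2 to 103) at the 32 unpartnered peaks, against a median of 31.0 at the other unpartnered peaks. Their folds were ordinary for the set, 1.51 to 3.88 with a median of 2.88, at a median pileup of 126. Their number among all unpartnered peaks was small, and without them 3559 remained, of which 620 were in runs of 3 or more and the largest run had 7. The raised background moved with this stretch, and its part in these calls was not tested.

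**Figure D4:**
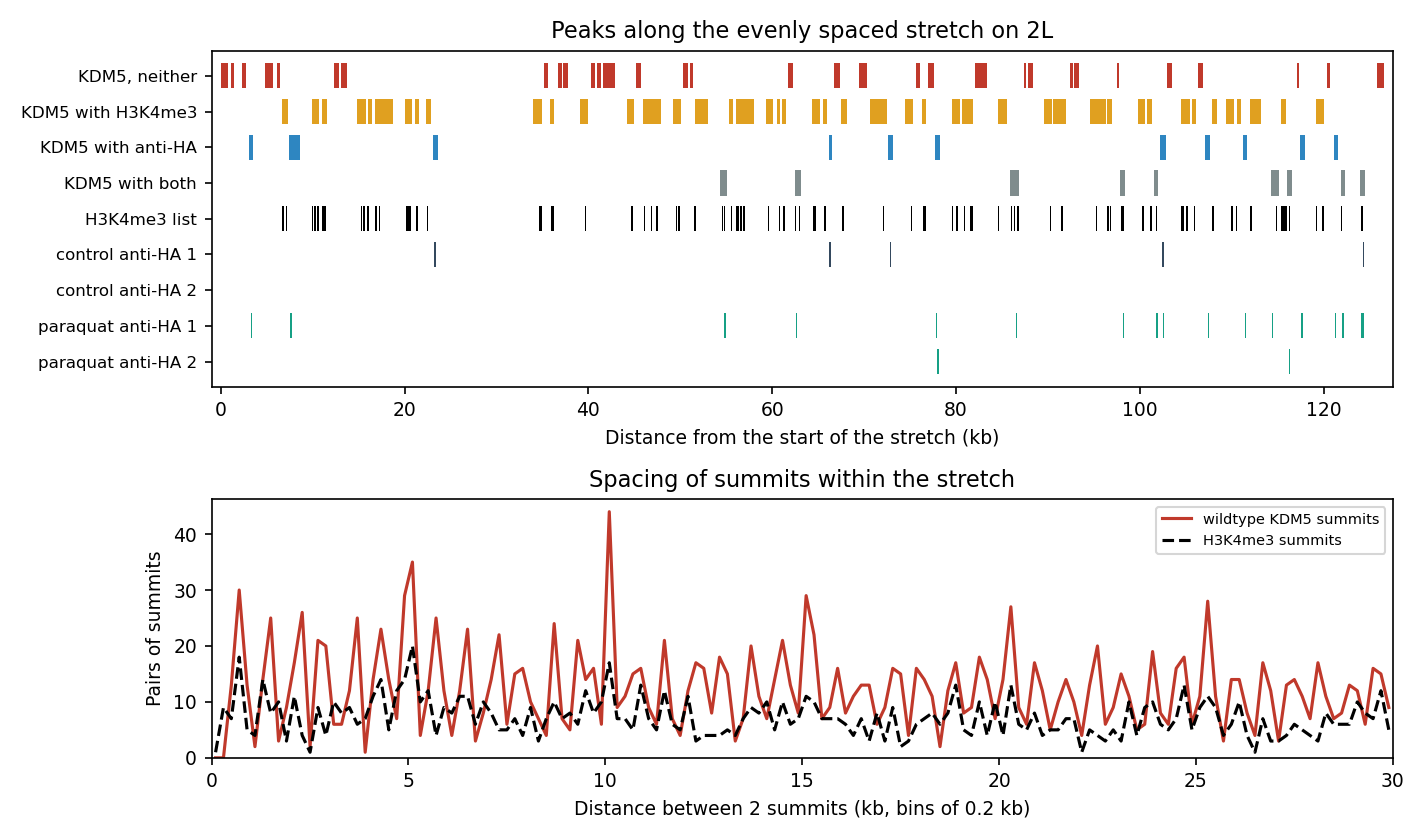
Top, peaks along the 127 kb stretch of 2L by class and library, with the distance from its start on the x axis (kb). Bottom, pairs of summits (y axis) by the distance between them (x axis, kb, bins of 0.2 kb) for KDM5 and H3K4me3. KDM5 peaks with H3K4me3 recur along the stretch, anti-HA peaks are few, and the KDM5 curve has its highest bins at 5 to 5.2 and 10 to 10.2 kb.

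The strongest unpartnered peaks were exceptions in most of these respects. The 19 in the upper 3 deciles had folds of 8.10 to 10.97 and a median width of 1186 bp. The 2513 partnered peaks of the same deciles had a median width of 1132 bp, and 86.4% of them overlapped a peak in all 4 anti-HA libraries. Of the 19, 14 lay more than 10 kb from any anti-HA region and 17 more than 10 kb from any H3K4me3 peak, with medians of 30.1 and 40.3 kb. Of all unpartnered peaks, 58.8% lay within 10 kb of an anti-HA region and 49.9% within 10 kb of an H3K4me3 peak. No other KDM5 peak lay within 5 kb of 12 of them (63.2%), against 290 (11.5%) of the partnered peaks of these 3 deciles. Folds were not matched within the 3 deciles, and 13 of the 19 were in decile 8, the lowest of them. These 19 therefore mostly stood far from other sites, and 7 were on 3L, 5 on 2R, 4 on 2L, 2 on 3R and 1 on X. Their number depends on paraquat library 1, whose peaks alone exclude a further 31 peaks of these deciles. Distances for those 31 are not given here, so the isolation is described for the 19 alone.

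The strongest of all, on 3L at 749373 to 751603, was 2231 bp wide with a fold of 10.97 and a pileup of 350, and ranked 21st by fold among the 8440 peaks. The nearest anti-HA region was 56.5 kb away and the nearest H3K4me3 peak 56.6 kb. The second, on 2R at 20230532 to 20232188, had a fold of 10.3 and the nearest anti-HA region at 56.6 kb. The third, on 2L at 14490826 to 14493641, had a fold of 9.80 over 2816 bp. It stood the most alone of the 10 strongest, with no KDM5 peak within 81.2 kb, no anti-HA region within 131 kb and no H3K4me3 peak within 128 kb. The fourth, on 3L at 11245393 to 11248479, was 3087 bp wide with a fold of 9.31, at 36.9 kb from an anti-HA region.

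Next by fold were 2 peaks in different settings. The fifth, on 2L at 22735540 to 22736519 (fold 9.01), had another KDM5 peak 0.209 kb away and an anti-HA region at 0.662 kb, although the nearest core region was 224 kb off. The sixth, on 3R at 12068550 to 12069554 (8.94), lay 19.5 kb from both a core region and an H3K4me3 peak. Then came 3 on 3L, at 19742049 to 19742896 (8.94), 23142066 to 23143649 (8.89) and 8669032 to 8670553 (8.87), at 43.5, 22.7 and 41.9 kb from an anti-HA region. The last, on 2R at 8481076 to 8482544 (8.76), was again a near miss, with an anti-HA region 596 bp and an H3K4me3 peak 780 bp away. Of these 10, 8 thus lay at least 19.5 kb from any anti-HA region and 2 lay within 1 kb of one. Without paraquat library 1 only 3 of the 10 would still rank among the 10 strongest.

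Width singled out partly the same places. The widest unpartnered peak, on 2R at 15998991 to 16003392, covered 4402 bp with a fold of 8.46, no other KDM5 peak within 116 kb and its summit 653 bp from the left edge. The next, on 3L at 6783320 to 6787079, covered 3760 bp with a fold of 6.79 and a summit 591 bp from the left. The third, on 2R at 15714141 to 15717651, had 3511 bp, a fold of 4.97 and a summit 282 bp from the left. The fourth was the 3087 bp peak on 3L already given, and the fifth, on 3R at 24407856 to 24410882 (3027 bp), was weak, with a fold of 3.74. The 4 widest had no other KDM5 peak within 20 kb, and in each the summit lay left of centre, at 8.03% to 18.5% of the width from the edge. The fifth widest had 3 neighbours within 20 kb and its summit 40.1% of its width from an edge.

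The peaks farthest from a core region were all near the centromeric end of 3L. The most remote, at 24530139 to 24531619 with a fold of 6.01, lay 1199 kb from the nearest core region and had no KDM5 peak within 305 kb. The next, at 24224589 to 24225314 (fold 6.16), lay 893 kb away, but only 13.9 kb from an H3K4me3 peak. The other 3 of the 5, at distances of 692 to 800 kb, were weaker, with folds of 2.07 to 2.63. Farthest from H3K4me3, at 249 kb, was a 266 bp peak on 3L at 23741002 to 23741267 with a fold of 2.10. The 4 that followed, 3 of them on 2L, had folds of 2.01 to 3.77 at 239 to 246 kb.

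Few peaks sat at the edge of the definition. Only 42 unpartnered peaks, or 1.17%, had an excluding peak within 100 bp, and 59 partnered peaks were excluded by an overlap of at most 100 bp in all. The 5 nearest unpartnered peaks missed by 2 to 14 bp, and the 5 smallest overlaps were 3 to 15 bp. Just inside, a peak on 2L at 5236119 to 5237388 with a fold of 5.40 missed an H3K4me3 peak by 2 bp, and one of fold 1.82 on X, spanning 8484173 to 8484433, missed an anti-HA region by 7 bp. Just outside, a peak on 3L at 9454115 to 9455165 with a fold of 3.94 was excluded by 3 bp of paraquat library 2, and one on 2R at 16983949 to 16984436 with a fold of 2.32 by 6 bp of paraquat library 1. Counting gaps of under 500 bp as overlap would leave 3208 unpartnered peaks.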

How the data were processed

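Deposited peak lists of 6 libraries were used, 1 per library, and the 3 inputs had no list and were not analysed here. Per the submitters' processing notes, CASAVA 1.4, Bowtie and MACS2 were used with the dm3 build; Bowtie and MACS2 versions, their settings and the choice of input are not given in the sources used. Libraries were selected for fragment size, per the labels. Each deposited row holds a pileup signal at the summit, −log10 values of p and q, and a fold ratio over local background, all from the authors' peak caller. Pileups in the deposited wildtype KDM5 list were whole numbers in 1.01% of rows and in 100% of rows of the other lists, and its shortest peak was 206 bp against 100 bp, so its widths and pileups are not on the scale of the other lists. Depth is unknown, and no precision from read counts can be given.

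Overlaps, gaps and merged anti-HA regions were computed with Python 3.11.15 and tested on simulated intervals against bedtools 2.31.1. Background was taken as (pileup + 1)/fold − 1. Gaps run from edge to edge, and shares of sequence compare summits with bases. Named peaks are the 10 strongest, the 5 widest, the 5 farthest from a core region or H3K4me3, the 5 largest runs and the 5 nearest to the boundary on each side. The compact run on 2L and the series of consecutive peaks were chosen after their values were seen. The set and these rules were chosen with earlier results of these data known. The labels do not say whether libraries 1 and 2 of a treatment are biological replicates. Alternatives covered the overlap rule, thresholds, list lengths, each anti-HA library left out, the core definition and the joining gap.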

Additional observations from a re-analysis of the deposited data

Results flagged for a closer look

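Signal outside the arms met the same criteria. On chromosome 4, 65 of 107 wildtype KDM5 peaks, or 60.7% (95% Wilson interval 51.3 to 69.5), overlapped no anti-HA or H3K4me3 peak, with a median fold of 2.55. On the heterochromatic and unplaced scaffolds 122 of 401 did, or 30.4% (26.1 to 35.1), with a median fold of 2.85. These are the rows that the choice of arms left out, and the shares stand beside 42.5% on the arms. The chance of an overlap was not alike in these places. Of the 7287 H3K4me3 peaks 4612 were on the arms, against 8440 of the 8948 KDM5 peaks, and the shares do not take this into account.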

How the results depend on the processing

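Of 16 alternatives for the number of unpartnered peaks, 15 stayed within 1.5 times of 3591, from 3208 with gaps under 500 bp counted as overlap to 4960 with the upper 50% of each excluding list. Requiring 50% of both intervals gave 6208, where excluding lists have median widths of 216 to 369 bp and the KDM5 list 825 bp. Leaving out each anti-HA library in turn gave 3611 to 4038 peaks, median widths of 507 to 536 bp, median pileups of 87.4 to 91.9, median folds of 2.63 to 2.76, gaps of 10089 to 10743 bp to a core region and 8925 to 10000 bp to H3K4me3, 654 to 896 peaks in runs of 3 or more, and 3 to 10 of the 10 strongest peaks retained. Without paraquat library 1 the values were 4038, 536, 91.9, 2.76, 10089, 8925, 896 and 3. With the upper 50% of the H3K4me3 list the median gap to it was 16356 bp. Peaks in runs of 3 or more numbered 272 at a joining gap of 2 kb, 1276 at 10 kb and 1948 by order in the list. Ranking by pileup kept 6 of the 10 strongest and ranking by −log10 p kept 8. Leaving out members in the 2L stretch was chosen after seeing the data, as was leaving out libraries for runs, H3K4me3 gaps and the strongest peaks. No paired analysis was possible because the results come from no test between the conditions. Unknown depth limits what the absence of an anti-HA or H3K4me3 peak shows: it is a peak not called, not a site shown to be unbound.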
